A study of Mus musculus with 7 samples.

Results

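The genes described here are Prom1, Erg, Kit, Flt3, Cd34, Meis1, Hoxa9, Mlf1, Gata2 and Myb, 10 of the 25033 genes listed in the RNA-seq tables, taken by name as genes of blood stem and progenitor cells. They were chosen knowing that their read counts differed between ORP4L KI and WT T-cells in opposite directions, with Prom1 and Erg on one side and Kit and Flt3 on the other. Their KI against WT values are therefore given as a description and are not tested. All 10 passed the filter for low counts that left 13462 genes.

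The series holds RNA-seq of T-cells from 7 C57BL/6J mice aged 15 months, with 1 library from each mouse. The 4 ORP4L KI mice carry the human ORP4L coding sequence in the Rosa26 locus behind a CAG promoter and a stop cassette between loxP sites, which is removed by Cre under the T-cell promoter Lck, and were sampled in a moribund state. The 3 WT mice are littermates of the same age, and whether they carry Cre is not stated. T-cells came from blood or spleen, and which source was used for each library is not stated. The methods also describe CD4+ T-cells taken with a kit for naive cells and cultured with IL-2 and PHA, but whether the RNA came from selected or cultured cells is not stated. Because each group is a set of single mice, the SDs below hold the spread between mice together with counting noise. The standard errors come from the edgeR fit, which also draws on the spread of other genes.

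Blood stem and progenitor cells are set apart from mature cells by surface proteins and transcription factors. KIT is the receptor for stem cell factor and FLT3 the receptor for FLT3 ligand, and both are receptor tyrosine kinases that keep early progenitors alive and dividing. Both also remain on some mature cells, KIT on mast cells and FLT3 on dendritic cells. PROM1 (CD133) and CD34 are surface glycoproteins used to sort progenitors. ERG, GATA2, MYB, MEIS1 and HOXA9 are transcription factors of stem and progenitor cells, and several of them are activated in leukaemia.

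The libraries held 12918187 to 15912921 reads assigned to genes in WT and 16757959 to 19665679 in ORP4L KI, and 16020 to 16406 genes had at least 1 read. Reads assigned to Osbp2, the mouse gene for ORP4L, numbered 0, 0 and 1 in WT and 188, 742, 155 and 443 in ORP4L KI. The knocked-in sequence is human, so these counts hold only those reads that map to the mouse transcript. All 12 T-cell markers examined (among them Cd3e, Lck, Cd4 and Cd8a) had reads in every library, and their summed level was 2942, 2241 and 3067 CPM (reads of a gene relative to the TMM-scaled library total) in WT and 1430, 4279, 2924 and 3183 CPM in ORP4L KI. Cd8a, which a CD4 selection would be expected to lower, was at 124 to 179 CPM in WT and 79.6 to 226 CPM in ORP4L KI. ORP4L KI replicate 1, the library lowest in T-cell markers, was the highest in neutrophil markers (140859 CPM, against 9869 to 52047 CPM in the other 3 ORP4L KI libraries). Values without it are given beside the results it moves most. Xist, read from the inactive X chromosome, was at 373 CPM in WT replicate 1 and at 391 and 651 CPM in ORP4L KI replicates 1 and 2, against 15.7 to 22.3 CPM in the other 4 libraries, so both kinds of library stood in both groups. In bulk RNA, fewer cells of a type and less RNA per cell cannot be told apart.

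Among the surface proteins, Prom1 had the widest difference. It was counted 29, 15 and 7 times in WT and 1104, 153, 254 and 330 times in ORP4L KI, which is 1.80, 0.943 and 0.492 CPM against 67.2, 8.38, 14.6 and 20.5 CPM. Every ORP4L KI library lay above every WT library, and the 4 ORP4L KI libraries spread over an 8.02-fold range. The log2 fold change was 4.66 ± 0.83 (SE of the edgeR fit, 4 ORP4L KI and 3 WT mice), and it was 3.72 without ORP4L KI replicate 1. Cd34, the other glycoprotein, stood at 7.89, 4.65 and 3.44 CPM in WT and 16.5, 4.27, 14.4 and 13.1 CPM in ORP4L KI. 3 of the 4 ORP4L KI libraries lay above all WT libraries, but replicate 2 lay below 2 of them, so the groups overlapped. The log2 fold change of Cd34 was 1.18 ± 0.47.

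The tyrosine kinase receptors stood the other way. Kit was counted 1067, 1324 and 917 times in WT and 604, 571, 661 and 474 times in ORP4L KI, or 66.3, 83.3 and 64.4 CPM against 36.8, 31.3, 38.0 and 29.5 CPM. All 4 ORP4L KI libraries were below the lowest WT library, with only a 1.29-fold range among them, and the log2 fold change was -1.07 ± 0.19. Flt3 was counted 1394, 2190 and 1284 times in WT and 488, 617, 1013 and 525 times in ORP4L KI. On the CPM scale this was 86.6, 137.7 and 90.2 in WT and 29.7, 33.8, 58.2 and 32.7 in ORP4L KI. The groups did not overlap, replicate 3 was the highest of the ORP4L KI libraries, and the log2 fold change was -1.44 ± 0.28.

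**Figure D1:**
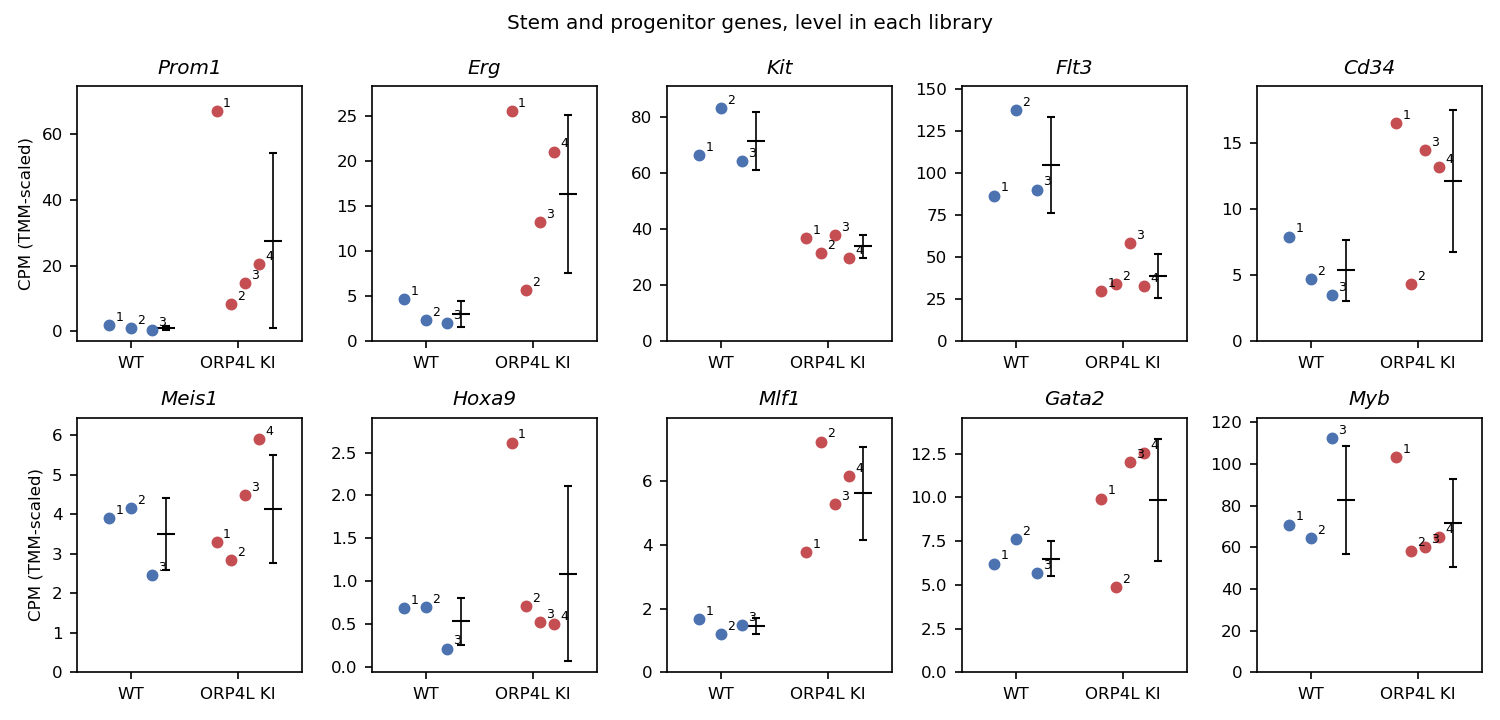
Level of each of the 10 genes in CPM (vertical axis, separate linear scale per gene) in the 3 WT and 4 ORP4L KI libraries, with 1 point per mouse labelled by replicate number and bars for the mean and SD. For Prom1, Erg and Mlf1 all 4 ORP4L KI points lie above the WT points, for Kit and Flt3 all lie below them, and for the other 5 genes the groups overlap.

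Of the transcription factors, the ETS factor Erg differed most. Erg was counted 75, 37 and 28 times in WT and 419, 103, 229 and 338 times in ORP4L KI, giving 4.66, 2.33 and 1.97 CPM against 25.5, 5.64, 13.2 and 21.0 CPM. The groups did not overlap, although ORP4L KI replicate 2 came close to WT replicate 1. The log2 fold change was 2.44 ± 0.54, and 2.14 without ORP4L KI replicate 1.

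Gata2, a zinc finger factor of stem cells and mast cells, was at 6.21, 7.61 and 5.69 CPM in WT and 9.92, 4.87, 12.0 and 12.5 CPM in ORP4L KI. 3 ORP4L KI libraries were above all WT libraries and 1 was below all of them, with a log2 fold change of 0.59 ± 0.34. The homeobox partners were at low levels. Meis1 was at 3.91, 4.15 and 2.46 CPM in WT and 3.29, 2.85, 4.48 and 5.91 CPM in ORP4L KI, and its log2 fold change of 0.23 ± 0.35 was smaller than its own error. Hoxa9 was counted only 11, 11 and 3 times in WT and 43, 13, 9 and 8 times in ORP4L KI. Its log2 fold change of 1.01 ± 0.73 rested on ORP4L KI replicate 1, without which it was 0.11. Myb, needed for progenitor division, was at 70.9, 64.6 and 112.3 CPM in WT and 103.4, 58.5, 60.0 and 64.9 CPM in ORP4L KI. The groups overlapped, and the log2 fold change was -0.20 ± 0.28, or 0.08 without WT replicate 3.

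Mlf1, which encodes a protein first found in a leukaemia fusion with nucleophosmin, was counted 27, 19 and 21 times in WT and 62, 132, 92 and 99 times in ORP4L KI. Its level was 1.68, 1.19 and 1.47 CPM in WT and 3.77, 7.23, 5.28 and 6.16 CPM in ORP4L KI, so the groups did not overlap. The log2 fold change was 1.95 ± 0.34. Mlf1 differed from Prom1 and Erg in which library led. ORP4L KI replicate 1 was the highest for Prom1 and Erg and the lowest for Mlf1.

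In all, the groups did not overlap for 5 of the 10 genes, 3 higher and 2 lower in ORP4L KI. Over all 13462 genes this held for 13.8%, with 6.43% higher and 7.38% lower. The fold was over 2 in size for 7 of the 10, and for 9.95% of all tested genes. These 10 were picked from this contrast, so nothing is read from the comparison.

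**Figure D2:**
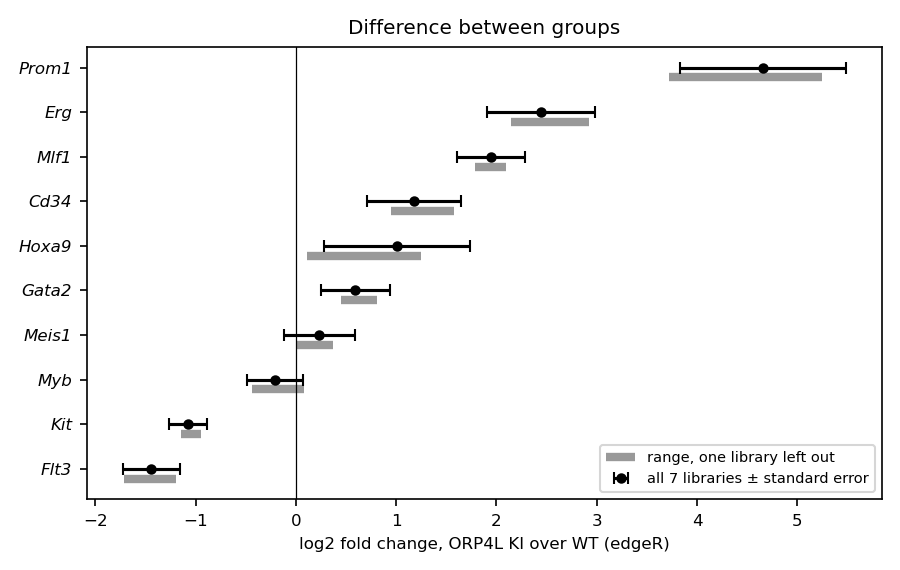
Log2 fold change of ORP4L KI over WT (horizontal axis) for the 10 genes, with bars for 1 standard error of the edgeR fit on 4 ORP4L KI and 3 WT libraries. The values run from 4.66 for Prom1 to -1.44 for Flt3, and those of Meis1 and Myb lie within 1 standard error of 0.

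The sequences upstream of Erg, Kit and Flt3 are shown because these genes stood on opposite sides of the contrast. A window of 250 bases was taken for each of the 10 genes before the most 5′ start in the RefSeq promoter table of GRCm38.p6, the same assembly as the mm10 build named by the submitters. RefSeq or GENCODE transcripts of the same gene began further upstream for 6 of the 10, so those windows reach into the gene. The Prom1 window (chr5:44101737-44101986, minus strand) lies wholly inside the gene and is not printed. The other windows are printed only up to the first annotated transcript base, 5′ to 3′ on the gene's strand. Erg is on the minus strand with 243 bases at chr16:95586601-95586843, Kit on the plus strand with 179 bases at chr5:75574737-75574915, and Flt3 on the minus strand with 250 bases at chr5:147400490-147400739. Capitals mark matches, on either strand, to the motif letters searched.
Erg: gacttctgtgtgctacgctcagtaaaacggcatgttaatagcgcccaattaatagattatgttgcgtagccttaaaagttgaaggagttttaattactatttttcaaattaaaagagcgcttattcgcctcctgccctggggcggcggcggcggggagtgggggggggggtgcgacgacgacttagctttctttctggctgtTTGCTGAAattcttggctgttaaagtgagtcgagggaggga
Kit: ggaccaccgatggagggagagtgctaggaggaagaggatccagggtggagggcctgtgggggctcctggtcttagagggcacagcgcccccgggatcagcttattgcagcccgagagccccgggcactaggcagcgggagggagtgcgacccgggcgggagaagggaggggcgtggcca
Flt3: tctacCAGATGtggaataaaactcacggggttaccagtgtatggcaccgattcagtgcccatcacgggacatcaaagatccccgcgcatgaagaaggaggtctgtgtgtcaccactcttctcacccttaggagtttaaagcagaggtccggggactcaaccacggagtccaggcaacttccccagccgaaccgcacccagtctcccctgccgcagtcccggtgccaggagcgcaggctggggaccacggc

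The motifs searched were the ETS core CCGGAA, the GATA core AGATAA, the RUNX core TGTGGT, the MYB core AACTG, the C/EBP letters TTGCNNAA, the E-box CAGNTG and the TATA box TATAAA, on both strands of the whole 250-base windows. Prom1 held 1 E-box and 1 RUNX match, Erg held 1 C/EBP match, Flt3 held 1 E-box match, and Kit held none. Among 27025 mouse promoter windows of the same length, 44.5% held the E-box, 14.2% the RUNX core and 9.55% the C/EBP letters. None of the 10 windows held the GATA core, present in 10.2% of all windows, or the MYB core, present in 39.1%, or the TATA box, present in 13.0%. Only the Meis1 window held the ETS core, present in 12.3%, and it also held a RUNX match. The Meis1 window, like that of Prom1, lies wholly inside the gene. GC content was 70.8% for Kit, 59.2% for Prom1 and Flt3, and 48.8% for Erg, against a median of 52% over all windows. These matches are letters in a window and were not tied to binding of any factor.

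Between genes, levels were compared in RPKM, which divides by transcript length. In WT the order was led by Flt3 (30.1 ± 6.52 RPKM, SD, n = 3), Myb (25.8 ± 9.13 RPKM) and Kit (14.5 ± 1.32 RPKM). All 7 others were below 3 RPKM on average, with Erg at 0.970 ± 0.493 RPKM, Prom1 at 0.307 ± 0.195 RPKM and Hoxa9 last at 0.171 ± 0.0866 RPKM. Flt3 and Myb overlapped, whereas Myb and Kit, Kit and Cd34, Gata2 and Mlf1, and Erg and Prom1 did not. In ORP4L KI, Myb was first (19.7 ± 3.73 RPKM, SD, n = 4), followed by Flt3 (10.2 ± 3.98 RPKM), Prom1 (6.62 ± 5.73 RPKM) and Kit (6.25 ± 0.882 RPKM). Prom1, Kit, Mlf1, Erg and Cd34 followed each other with overlapping values, Cd34 at 4.55 ± 1.82 RPKM. Meis1 (1.14 ± 0.362 RPKM) and Hoxa9 (0.304 ± 0.251 RPKM) were last and were each separated from the gene above. The place of Prom1 rested on ORP4L KI replicate 1 (15.1 RPKM). Without that library, a choice made after seeing the data, Prom1 was at 3.81 ± 1.31 RPKM (SD, n = 3), below Kit, Mlf1, Cd34 and Erg, and Hoxa9 was at 0.180 ± 0.0524 RPKM.

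**Figure D3:**
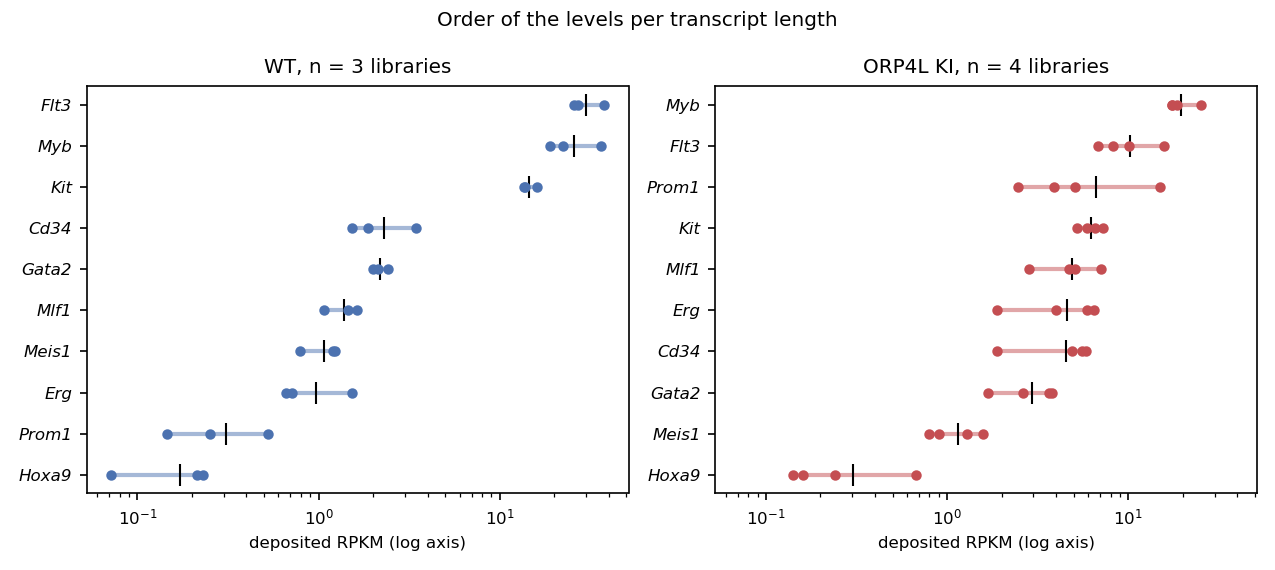
RPKM of the 10 genes (horizontal axis, log scale) in WT and in ORP4L KI, each panel ordered by the group mean, with 1 point per library, a line for their range and a black tick for the mean. Flt3, Myb and Kit lead in WT, whereas in ORP4L KI the mean of Prom1, raised by 1 library, stands between those of Flt3 and Kit.

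The balance between genes within a library was compared next. Kit was 26.4, 63.4 and 94.0 times Prom1 in RPKM in the WT libraries, and 0.393, 2.68, 1.87 and 1.03 times Prom1 in the ORP4L KI libraries. Kit against Erg was 8.99, 22.6 and 20.7 in WT and 0.911, 3.50, 1.82 and 0.886 in ORP4L KI. The receptors kept a closer balance with each other, Flt3 being 1.85, 2.34 and 1.98 times Kit in WT and 1.14, 1.53, 2.17 and 1.57 times Kit in ORP4L KI.

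The genes also differed in their spread between the ORP4L KI mice. Prom1 varied more (SD of log2 CPM) than 98.0% of all tested genes, Hoxa9 more than 94.5%, Erg more than 93.3% and Cd34 more than 91.0%. Kit varied less than most, above only 13.7% of genes. Genes with few reads vary more through counting alone, which touches Hoxa9 first. The libraries ranked 1, 4, 3, 2 from high to low in ORP4L KI for Prom1, Erg and Myb, an order that 16.7% of tested genes shared. They ranked 1, 2, 3 in WT for Prom1, Erg and Cd34, as in 21.1% of genes. Prom1 and Erg were the only 2 of the 10 with both orders, which 5.17% of tested genes had. Kit ranked 3, 1, 2, 4 and Flt3 ranked 3, 2, 4, 1 in ORP4L KI.

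The genes nearest to Prom1 over the 7 libraries, by root mean square difference of log2 CPM after centring each gene, were Ear1 (0.27), Orm1 (0.27), Cebpe (0.27), Ctsg (0.32) and Prtn3 (0.39) among 12603 genes searched. Ctsg and Prtn3 encode granule proteases of neutrophil precursors, and Cebpe encodes a granulocyte transcription factor. Nearest to Erg were Adpgk (0.26), Tbc1d2 (0.32), Lhfpl2 (0.33), Gca (0.33) and Chil5 (0.33). Nearest to Kit were Mpeg1 (0.09), Tlr7 (0.12), I830077J02Rik (0.12), Krt80 (0.14) and Icosl (0.14). Mpeg1 and Tlr7 are known from macrophages and dendritic cells. Of the 10 genes themselves, the nearest to Prom1 was Erg, ranked 78th, and the nearest to Kit was Flt3, ranked 283rd. Cd34 was the nearest to Erg, ranked 137th. Because the likeness includes the difference between groups, it is a description of these 7 libraries.

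The rest of the stem and progenitor programme was followed in 99 other genes, of which 76 were tested. Calls required a fold over 2 and p under 0.01 before adjustment, from edgeR's quasi-likelihood test. By this rule 1 of the 76 was higher and 3 were lower in ORP4L KI, 5.26% in all, close to the 4.68% of all tested genes called (2.38% higher and 2.3% lower). The median log2 fold change of the 76 was -0.04, against 0.01 over all tested genes. None passed an adjusted p under 0.05 (edgeR, Benjamini-Hochberg over all 13462 genes), a threshold that 0.0223% of tested genes passed. 15 of the 76 had an unadjusted p under 0.05, against 1845 of all 13462 tested genes. At the adjusted threshold other count tests passed 5 (DESeq2 Wald) or 4 (edgeR exact and likelihood ratio) of the 76. Over all 13462 genes they passed 784 (DESeq2 Wald), 682 (edgeR exact) and 706 (likelihood ratio), so nothing is read from these counts. Leaving out single libraries gave 2 to 7 calls, with 2 without WT replicate 1, WT replicate 2, ORP4L KI replicate 3 or ORP4L KI replicate 4, and 7 without ORP4L KI replicate 1. Close relatives of a gene, such as Mybl1 and Mybl2, may share some reads, since how reads matching several transcripts were assigned is not given in the sources used here.

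The called genes were as follows. Pknox2, a TALE homeobox gene related to Meis1, was counted 2, 4 and 0 times in WT and 35, 15, 26 and 25 times in ORP4L KI. Its log2 fold change was 3.47 ± 0.72 with an edgeR adjusted p of 0.0720. It passed the filter for low counts only through the ORP4L KI libraries, and where 10 counts were required in every library it was not tested and no gene of the lists was called higher. Csf1r, the macrophage growth factor receptor of the same kinase family as Kit and Flt3, was counted 3676, 5489 and 3218 times in WT and 2275, 1795, 2034 and 1932 times in ORP4L KI. Its log2 fold change was -1.17 ± 0.22 with an edgeR adjusted p of 0.0655. Mybl1, a relative of Myb, had a log2 fold change of -1.25 ± 0.35 and an edgeR adjusted p of 0.146, and its counts were 71, 38 and 34 in WT and 21, 26, 21 and 20 in ORP4L KI. Dntt, the terminal transferase of early lymphoid cells, was counted 122, 138 and 69 times in WT and 75, 51, 43 and 46 times in ORP4L KI, a log2 fold change of -1.15 ± 0.33 with an edgeR adjusted p of 0.147.

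The medians of the 6 lists lay between -0.22 and 0.14 on the log2 fold change scale. Of 12 other surface markers of stem cells none was called, and the values at the ends included 1.02 for Adgrg1 (GPR56), -1.09 for Esam and -0.88 for Procr, on the log2 fold change scale. Adgrg1 did not overlap between groups but was not called (edgeR adjusted p = 0.177). It was 1 of 5 genes among the 76 that were higher in ORP4L KI without overlap, and 7 were lower without overlap. Over all 13462 tested genes, 866 were higher and 993 lower without overlap. Of 19 tested transcription factors none was called, with 1.01 for Hlf and 0.39 for Tal1 at one end and -1.27 for Prdm16 and -0.94 for Nkx2-3 at the other. In the HOX, MEIS and PBX list, where 15 of 27 genes were tested, Pknox2 was followed by Hoxb3 (1.07), while Dot1l (-0.33) and Hoxa7 (-0.27) were the lowest.

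Of 17 genes of KIT and FLT3 signalling none was called, and the range was narrow. The highest log2 fold changes were 0.37 for Socs6 and 0.29 for Cblb, and the lowest were -0.61 for Cbl and -0.50 for Sh2b3, all of them known as dampers of receptor signalling. The ligand genes had values of -0.27 ± 0.46 for Kitl, with 12 to 30 reads per library, and -0.42 ± 0.23 for Flt3l. Among 7 tested relatives of the 10 genes, Mybl2 (1.00) and Gata3 (0.27) were the highest beside the called Mybl1 and Csf1r. Among 6 tested early lymphoid genes only Notch1 was positive (0.28), and Sox4 (-0.91) was the lowest after Dntt.

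**Figure D4:**
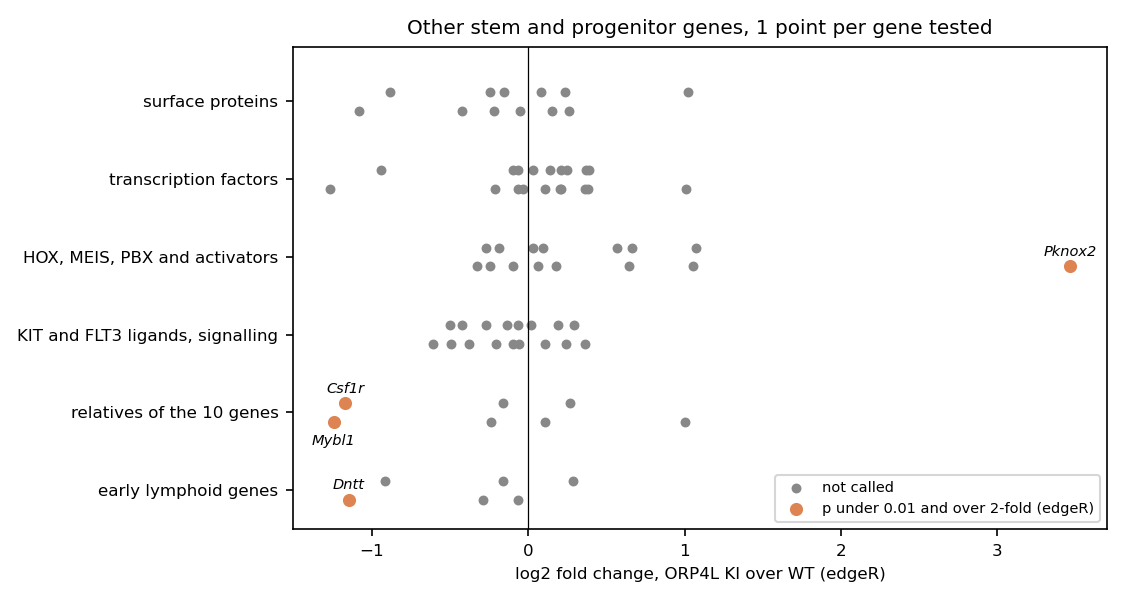
Log2 fold change of ORP4L KI over WT (horizontal axis) for the 76 tested genes of the 6 other stem and progenitor lists (rows), with 1 point per gene and the called genes in orange and named. Most points lie between -1 and 1, and 4 genes are called, Pknox2 to the right and Csf1r, Mybl1 and Dntt to the left.

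Markers of other blood cells moved with these genes. The marker lists were chosen with earlier results of these data known, so their counts of calls are a description only. Over all tested genes 2.38% were called higher and 2.3% lower. All 7 granulocyte precursor markers were called higher in ORP4L KI, with summed levels of 265, 59.3 and 35.6 CPM in WT and 6537, 737, 1258 and 1987 CPM in ORP4L KI. Mpo, the peroxidase of their granules, was the most abundant. Their order over libraries was that of Prom1 and Erg in both groups. Of 11 neutrophil markers, 9 were called higher, S100a9 being the most abundant, with a summed level of 2449 to 5643 CPM in WT and 9869 to 140859 CPM in ORP4L KI. Of the 11, 10 had a positive and 1 a negative log2 fold change, and the groups did not overlap for 8. Csf3r was the negative one and was not called (-0.99, with means of 701 CPM in WT and 352 CPM in ORP4L KI). Cxcr2 was not called either (0.40). Of 10 dividing-cell markers all had positive log2 fold changes and 2, Mki67 (the most abundant) and Top2a, were called, with sums of 193 to 359 CPM in WT and 459 to 1111 CPM in ORP4L KI. The dividing-cell sum had the same orders over libraries as Prom1 and Erg in both groups, and the neutrophil, mast cell and basophil, and monocyte and macrophage sums shared the order in ORP4L KI only. The part of these markers in the values of Prom1, Erg and Cd34 was not tested.

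Dendritic cell markers were lower in ORP4L KI together with Kit and Flt3, and other lists were mixed. Of 7 dendritic cell markers 6 were called lower in ORP4L KI, against 2.3% of all tested genes, and Itgax was the most abundant. Their summed level was 480, 632 and 409 CPM in WT and 122, 174, 211 and 150 CPM in ORP4L KI, with the same order of the ORP4L KI libraries as Flt3. In WT their order was that of Kit (2, 1, 3) and not that of Flt3 (2, 3, 1). Kit had another order in ORP4L KI, and the share of all tested genes with the order of Flt3 was not counted. Cd209a was the member of the dendritic cell list past the adjusted threshold (edgeR adjusted p = 0.0471). Mast cell and basophil sums overlapped between groups (292 to 760 CPM in WT and 226 to 1002 CPM in ORP4L KI). They were made mostly of Hdc, with means of 479 CPM in WT and 628 CPM in ORP4L KI. Of the 6 markers tested, 5 had a positive and 1 a negative log2 fold change, with a median of 0.98. Prss34 was called higher. Of 8 NK markers 5 were called lower, with sums of 557 to 750 CPM in WT and 431 to 1026 CPM in ORP4L KI. 2 others of that list, Eomes and Nkg7, were higher in ORP4L KI without overlap of the groups but were not called (log2 fold changes of 1.59 and 0.69). Gzma was the most abundant of them in WT and Eomes in ORP4L KI. Of 10 monocyte and macrophage markers, 8 had negative and 2 positive log2 fold changes, with a median of -0.55. Csf1r was called lower and Ly6c2 higher, and the groups did not overlap for 3 lower and 1 higher. Their sums were 2839 to 4651 CPM in WT and 2117 to 7164 CPM in ORP4L KI. Lyz2 led these sums, with means of 2556 CPM in WT and 3071 CPM in ORP4L KI. The part of these markers in the values of Kit and Flt3 was not tested.

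Cells that share Erg, Cd34 or Gata2 with progenitors were also examined. Of 8 tested endothelial markers, all had negative log2 fold changes and Cdh5 was called lower. The sums were 177 to 214 CPM in WT and 88.1 to 157 CPM in ORP4L KI, led by Pecam1 (means of 119 and 82.4 CPM). None of 8 megakaryocyte markers, led by Itga2b, was called (216 to 258 CPM in WT and 113 to 435 CPM in ORP4L KI). None of 8 tested erythroid markers, led by Hbb-bs, was called (4908 to 8844 CPM in WT and 572 to 4339 CPM in ORP4L KI). None of 8 B-cell markers, led by Cd79a, was called (343 to 599 CPM in WT and 203 to 609 CPM in ORP4L KI). None of the 12 T-cell markers, led by Lck, was called. No marker of any of these lists was at 0 in every library of a group. The part of the endothelial, megakaryocyte and erythroid markers in the values of the 10 genes was not tested.

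**Figure D5:**
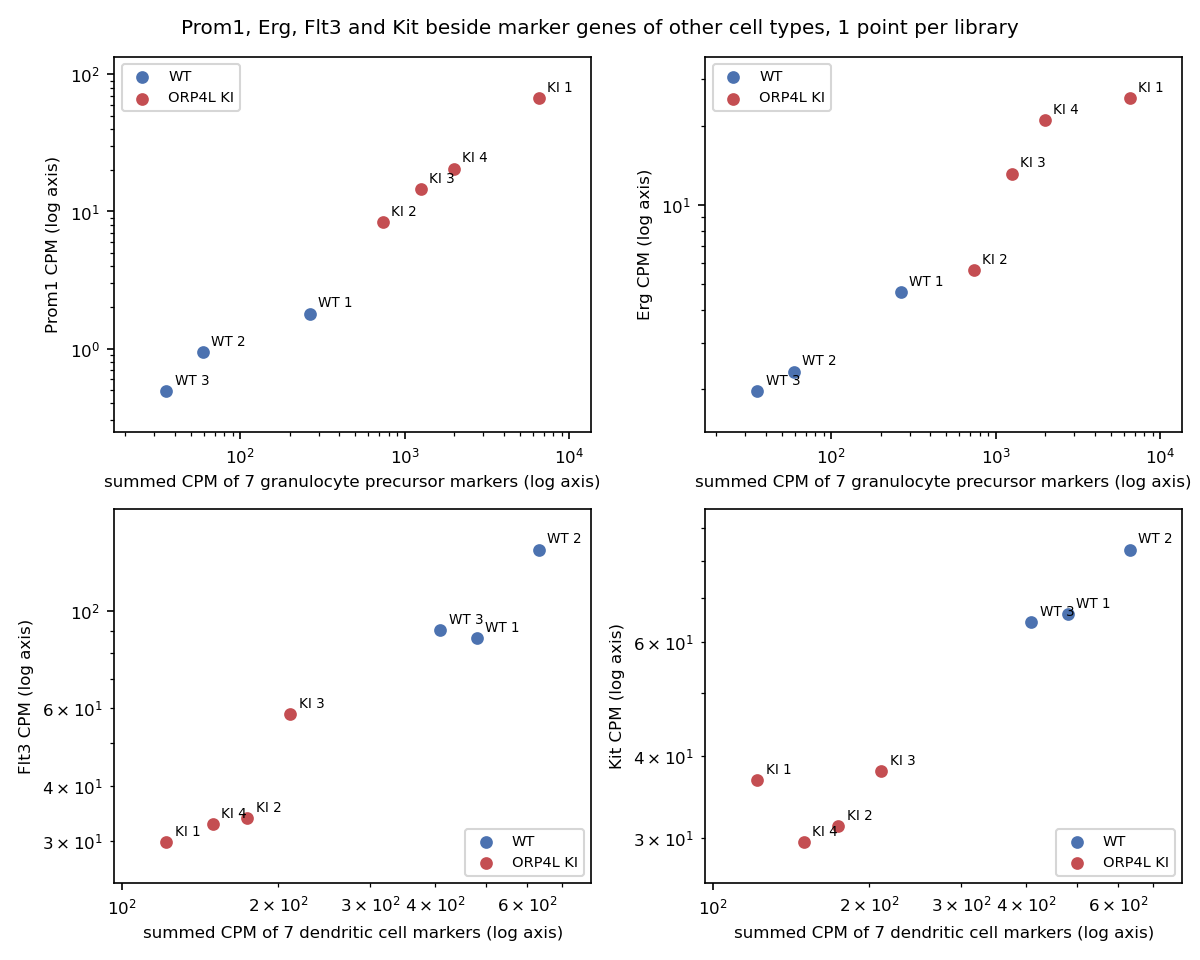
Level of Prom1, Erg, Flt3 and Kit (vertical axes, CPM, log scale) against the summed CPM of 7 granulocyte precursor markers (for Prom1 and Erg) or 7 dendritic cell markers (for Flt3 and Kit) on horizontal log axes, with 1 point per library in WT and ORP4L KI colours. The libraries high in granulocyte precursor markers are those high in Prom1 and Erg, and the 4 ORP4L KI libraries are lower than the 3 WT libraries in dendritic markers, Flt3 and Kit.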

How the data were processed

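RNA-seq reads from T-cells of 3 WT and 4 ORP4L KI mice were trimmed and mapped by the authors to mouse transcripts (mm10 per the labels) with FANSe3 (version not given in the sources used here), and splice variants were merged by gene. The deposited read counts are whole, unnormalized numbers per gene. The deposited RPKM values were computed by the authors with the longest transcript of each gene and were used only to compare levels between genes.

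The fit was made with edgeR 4.0.16 (R 4.3.3), using filterByExpr (minimum count 10, minimum total 15), TMM scaling and the quasi-likelihood test without covariates, with p-values adjusted by Benjamini-Hochberg over the 13462 genes tested. Called genes had an unadjusted p under 0.01 and a fold over 2. CPM used the TMM-scaled totals. Standard errors were derived from the fit, which used a prior count of 0.125. A count of 0 allows up to 3 reads, or 0.164 to 0.211 CPM by library, for counting error only. No libraries agreed within sampling noise. The script was tested on simulated data.

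The 10 genes and all lists were chosen with earlier results of these data known. Genes named were the 10, every called gene of the non-member lists, up to 2 extremes per direction in each list (1 gene is not reported here), the 5 nearest genes of Prom1, Erg and Kit (mean log2 CPM of at least 0), and the most abundant gene of each marker list. Genes named outside this rule (the markers given by name, Adgrg1 in detail and the ligands) were chosen after their values were seen. Ahsp, an erythroid marker, was not used here. Alternatives were DESeq2 1.42.0, other scalings, filters and tests, a replicate block and leaving out each library. The RPKM order without ORP4L KI replicate 1 was added after seeing the data. Sequence windows were taken from RefSeq (all 10 genes matched) and trimmed against GENCODE vM21 transcripts. Figures were drawn with Matplotlib 3.10.9 in Python 3.11.15.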

Additional observations from a re-analysis of the deposited data

Results flagged for a closer look

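In the 10 groups of 4 ORP4L KI libraries examined, 1 for each gene, 3 held a library far from the other 3 by Dixon's criterion, where chance would give about 1 in 20 groups, or 0.5 of 10. Flt3 was at 58.2 CPM in ORP4L KI replicate 3, against 29.7 to 33.8 CPM in the others, and remained below every WT library there. Hoxa9 was at 2.62 CPM in replicate 1, against 0.498 to 0.712 CPM, on 43 reads against 8 to 13. Myb was at 103 CPM in replicate 1, against 58.5 to 64.9 CPM, and was there within the range of the WT libraries.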

How the results depend on the processing

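Of 168 values of the 10 genes under other scalings, filters and tests, the replicate block and single libraries left out, 167 kept their direction. Without ORP4L KI replicate 1, Hoxa9 moved from 1.01 to 0.11 and Prom1 from 4.66 to 3.72, further than their standard errors. Myb alone reversed, from -0.20 to 0.0817 without WT replicate 3, and its values with single libraries left out ran from -0.442 to 0.0817. Prom1 and Hoxa9 were not tested where 10 counts were required in every library. Among the 76 other stem and progenitor genes, the 4 calls became 0 at an adjusted p under 0.05 and 2 (Csf1r and Pknox2) with the replicate block, and ran from 2 to 7 with single libraries left out. The 630 calls over all genes became 3 at an adjusted p under 0.05, and ran from 328 (without WT replicate 2) to 805 (without ORP4L KI replicate 2) with single libraries left out. DESeq2 passed 784 genes at the adjusted threshold, edgeR's exact test 682 and its likelihood ratio test 706. Scaling by total counts alone moved the median log2 fold change over the table by -0.142 and gave 40.3% of calls higher in ORP4L KI, against 50.8%. Replicate numbers did not pair the samples: deviations of same-numbered libraries correlated at 0.15, -0.53 and -0.0018 across genes, and 1 of 6 libraries correlated best with its own number. The replicate block gave 466 calls over all genes. Hoxa9 and Pknox2, on few reads, are the genes that depth limits most.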

Other observations

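Genes of early lymphoid development that were too low to test still had reads in single libraries. Vpreb1, part of the surrogate light chain of the precursor B-cell receptor, was counted 1, 0 and 1 times in WT and 19, 0, 0 and 3 times in ORP4L KI. Igll1, its partner, was counted 0, 3 and 0 times in WT and 9, 2, 1 and 0 times in ORP4L KI. Rag1, of the recombinase, was counted 0, 4 and 2 times in WT and 9, 1, 1 and 1 times in ORP4L KI. ORP4L KI replicate 1 was the highest for these 3, on at most 19 reads. For the other untested genes of the list, ORP4L KI replicate 1 was the only ORP4L KI library with reads. For each of them, however, a WT library held as many reads or more. Ptcra was counted 0, 5 and 1 times in WT and 4, 0, 0 and 0 times in ORP4L KI, and Rag2 was counted 0, 1 and 1 times in WT and 1, 0, 0 and 0 times in ORP4L KI. These genes were chosen after their values were seen.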
